A study of Caenorhabditis elegans with 9 samples.

Results

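The *abu* and *pqn* genes of *C. elegans* were followed in whole-worm RNA from *daf-1* mutants, *daf-1*; *daf-3* double mutants and wild-type N2 animals. A gene was taken as a member when its entry in the deposited FPKM table (sequenced fragments scaled to exon length and library size) carried a single name of the form *abu-* or *pqn-* followed by a number, or was T06E4.8 or F41E6.11. This rule found 69 of 40313 entries, 16 in the *abu* group, which holds T06E4.8 and F41E6.11 here, and 53 *pqn* genes. The rule used names and no measured value, but the study had picked T06E4.8, F41E6.11, *abu-1*, *abu-8*, *abu-10*, *abu-11* and *pqn-74* from these same libraries. It picked them for a rise in *daf-1* mutants against both N2 and the double mutants. Their direction in either comparison is therefore not independent evidence. The 3 genotypes were sequenced with 3 biological replicates each: *daf-1*(*m40*), the double mutant *daf-1*(*m40*); *daf-3*(*mgDf90*), made by crossing the single mutants, and the Bristol strain N2, which carries neither allele. All 9 populations of hermaphrodites were fed *E. coli* NA22, grown at 16 °C until L4 and then held at 25 °C, for 25 h by the sample labels, before RNA was extracted from 250 mg of worms. The replicate number, 1 to 3, is the batch number in the sample titles, and each batch holds 1 library of each genotype. The question for these genes is whether their transcripts change when the receptor DAF-1 is lost, and whether they still do when DAF-3 is lost as well.

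The *abu* genes take their name from "activated in blocked unfolded protein response", after their induction in worms that cannot mount the normal endoplasmic reticulum (ER) stress response. The *pqn* genes are named for prion-like domains rich in glutamine and asparagine, a property of the sequence and not of a tissue. Part of both groups is reported to encode secreted proteins of the cuticle that lines the pharynx, the feeding organ, a lining that is shed and rebuilt with the rest of the cuticle at each larval molt. DAF-1 is the type I receptor of the DAF-7 TGFβ pathway, and DAF-3 is a SMAD protein that the active receptor antagonizes.

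The *daf-3* transcript fits the labels. It was measured at 19.9, 22.3 and 20.6 FPKM in *daf-1* mutants and 0, 0.0147 and 0 FPKM in *daf-1*; *daf-3* double mutants, against 19.2, 18.8 and 22.5 FPKM in N2. The *daf-1* transcript stayed detectable in the mutants, at 13.9, 12.8 and 13.4 FPKM in *daf-1* mutants and 14.5, 13.7 and 12.96 FPKM in *daf-1*; *daf-3* double mutants, against 21.6, 23.7 and 22.3 FPKM in N2. *daf-1*; *daf-3* replicate 3 stands apart from the other libraries of its genotype, and the study left it out, so comparisons of the members are given first for 8 libraries without it and then for all 9. FPKM totals lay between 748170 and 959313 per library, and 16063 to 17196 entries per library were above 0. No read counts per gene entered the tests, and errors are the spread between libraries. The RNA is from whole worms, so a member's tissue was not measured, and fewer cells of a type and less RNA per cell cannot be told apart.

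The study measured *abu-11*, *abu-8* and *pqn-74* by qRT-PCR in the same RNA, and its primers for them are shown because they say which stretch of these repetitive genes was amplified. They are printed 5′ to 3′ in lower case, with FW the forward and REV the reverse primer. In WBcel235 coordinates, used throughout, *abu-11* lies at II: 192509 to 194558, *abu-8* at V: 5192995 to 5194608 and *pqn-74*, which has a predicted chitin-binding activity, at IV: 13329507 to 13331406, each on the minus strand.
abu-11 FW: tgttcaggtcggaggaacca
abu-11 REV: attgtggctgacactgtggg
abu-8 FW: ccttgtggtgtctggcagc
abu-8 REV: gagtttgttgtggctgagcg
pqn-74 FW: gctactctcgcagctctcg
pqn-74 REV: aactcgtatcctgggaggca

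The members are spread over all chromosomes. Of the 65 found in the annotation, 20 lie on V, 13 on X, 9 on III, 8 on II, 8 on IV and 7 on I, and 2 of them, *abu-3* and *pqn-11*, are annotated as pseudogenes. *pqn-47*, *pqn-60*, *pqn-97* and *pqn-98* were not matched. Several members lie side by side as neighbours that could share reads. *abu-15* (V: 5158602 to 5159907), *abu-6* and *abu-7* (V: 5163270 to 5164782) lie together on V, and so do *abu-1* (V: 10380340 to 10381826) and *pqn-2*, on opposite strands and with 1275 coding bases each. *pqn-63* (V: 9616031 to 9617651) and T06E4.8 (V: 9622105 to 9622934) are neighbours too. *pqn-76*, *abu-5*, *pqn-78* and *pqn-79* lie together on IV with 1005 coding bases each, and *pqn-57* and *abu-9* on X with 1134 each. How reads of near-identical copies were divided is not given in the sources used here, so the values of these neighbours are uncertain.

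An entry was tested when at least 2 of the 8 libraries reached 0.5 FPKM, and 55 of the 69 members were, 10 *abu* and 45 *pqn*. Of the other 14, 7 were listed at 0 in every library: *abu-5*, *abu-9*, *pqn-57*, *pqn-76*, *pqn-78*, *pqn-79* and *pqn-90*, among them the whole groups of equal coding length on IV and X. The highest value of any untested member was 0.622 FPKM, for *abu-6* in *daf-1* replicate 2. Among the tested, 4 members, *abu-1*, *abu-7*, *abu-15* and *pqn-2*, reached 0.5 FPKM in the 8 libraries through *daf-1* mutants only, as did 1.54% of all tested entries. Such a member had to differ in order to be tested, and the main counts that hold it are given with and without it. Mean levels over the 9 libraries ran from 0.356 FPKM (*abu-7*) to 68.1 FPKM (*abu-14*) among the tested *abu* genes and from 0.173 FPKM (*pqn-2*) to 218 FPKM (*pqn-52*) among the tested *pqn* genes.

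The summed level of the *abu* genes was high in *daf-1* mutants, lowest in replicates 1 and 2 of the double mutants and highest in their replicate 3, and the most abundant members set that sum. Of the 10 tested *abu* genes, double mutant replicate 3 was the highest library for 6, beside 20.7% of all tested entries. Double mutant replicates 1 and 2 were below all N2 libraries for 5, as they were for 20 of 45 tested *pqn* genes. The share of all entries with that separation was not counted. FPKM values of the *abu* genes, summed over the group in each library, came to 125.1, 178.4 and 246.1 in *daf-1* mutants, 8.36, 14.1 and 304.8 FPKM in *daf-1*; *daf-3* double mutants, and 26.4, 64.9 and 166.8 in N2. The *pqn* genes summed to between 1394 and 1689 FPKM in every library, a total that a few strongly expressed members set. In each genotype the *abu* sum was highest in replicate 3, and the range within N2 overlapped that of *daf-1* mutants.

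**Figure D1:**
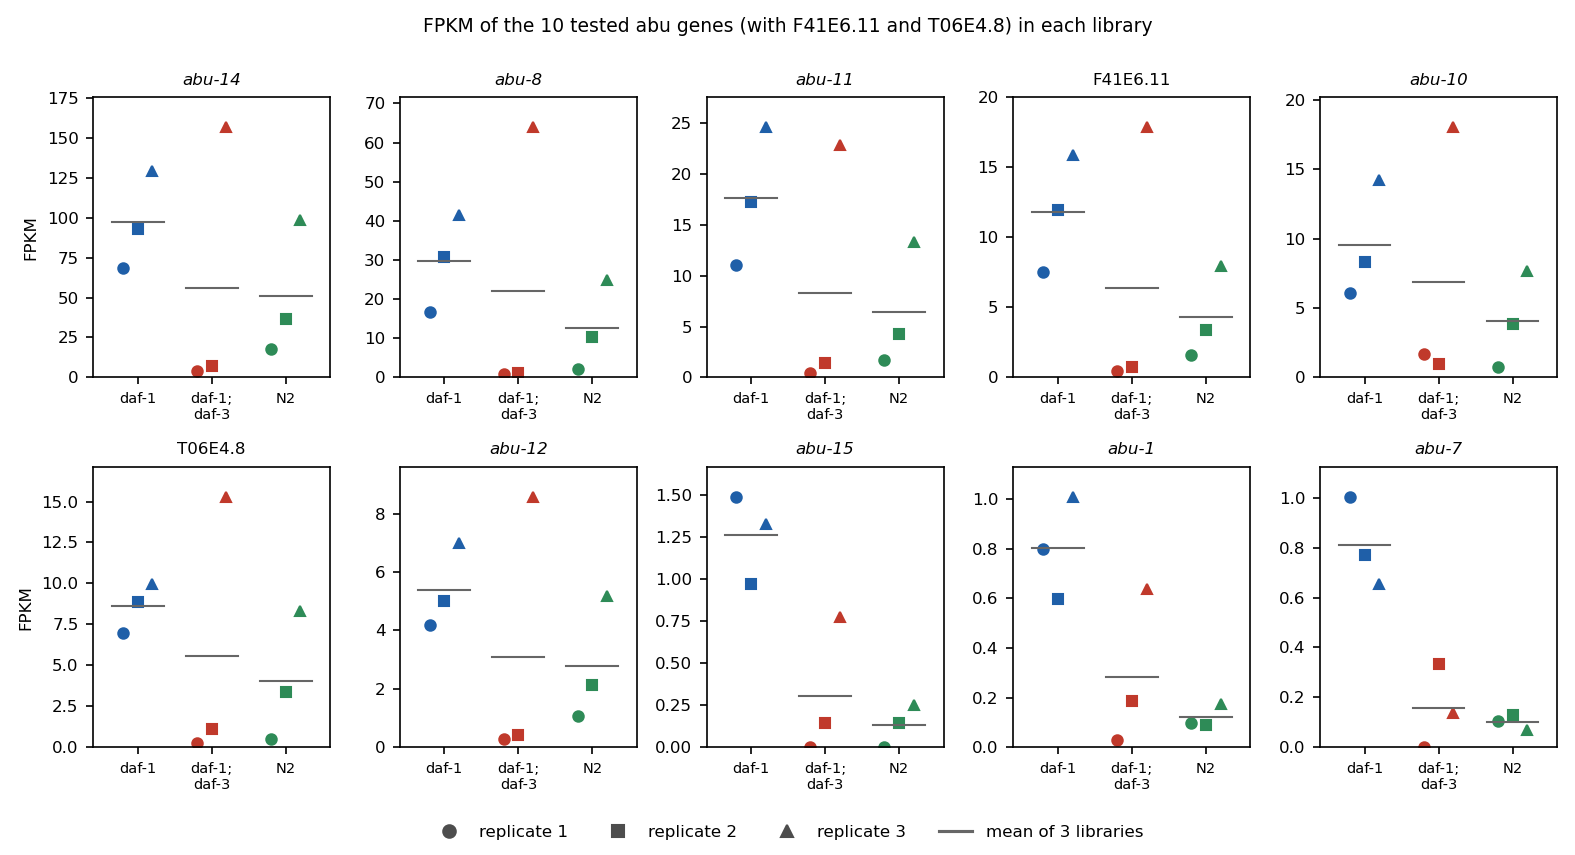
FPKM of each of the 10 tested *abu* genes, F41E6.11 and T06E4.8 included, in *daf-1*, *daf-1*; *daf-3* and N2 libraries, with the replicate number as the symbol and the mean of 3 libraries as a line. In every panel replicate 3 of the double mutant (triangle) lies above all N2 libraries, and replicates 1 and 2 lie below all *daf-1* libraries.

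*abu-14* (II: 9225186 to 9227214) was the most abundant of them. It is one of the genes through which the pharyngeal cuticle role of the family was described. It was measured at 68.7, 93.1 and 129 FPKM in *daf-1* mutants and 4.18, 7.20 and 157 FPKM in *daf-1*; *daf-3* double mutants, against 18.01, 36.8 and 98.8 FPKM in N2. *abu-8* was measured at 16.7, 30.8 and 41.5 FPKM in *daf-1* mutants and 0.924, 1.05 and 63.9 FPKM in *daf-1*; *daf-3* double mutants, against 2.19, 10.4 and 25.0 FPKM in N2. Replicates 1 and 2 of the double mutants were below every other library for both genes, and replicate 3 was above every other library.

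*abu-11* was measured at 11.1, 17.2 and 24.6 FPKM in *daf-1* mutants and 0.460, 1.46 and 22.9 FPKM in *daf-1*; *daf-3* double mutants, against 1.73, 4.26 and 13.4 FPKM in N2. F41E6.11, named *idpc-2* in the current annotation (V: 8619925 to 8621313), was measured at 7.52, 11.99 and 15.9 FPKM in *daf-1* mutants and 0.493, 0.731 and 17.9 FPKM in *daf-1*; *daf-3* double mutants, against 1.63, 3.37 and 7.95 FPKM in N2. *abu-10* (X: 3798182 to 3799741) was measured at 6.06, 8.35 and 14.3 FPKM in *daf-1* mutants and 1.69, 0.974 and 18.05 FPKM in *daf-1*; *daf-3* double mutants, against 0.773, 3.86 and 7.68 FPKM in N2. For these 3 genes as well, the libraries of *daf-1* mutants and replicates 1 and 2 of the double mutants did not overlap, while N2 replicate 3 reached into the range of *daf-1* mutants. *abu-10* differed in one respect, since N2 replicate 1 was its lowest library.

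T06E4.8, named *idpc-5* in the current annotation, was measured at 6.95, 8.86 and 9.97 FPKM in *daf-1* mutants and 0.284, 1.13 and 15.3 FPKM in *daf-1*; *daf-3* double mutants, against 0.506, 3.36 and 8.31 FPKM in N2. *abu-12* (X: 450446 to 457610) was measured at 4.18, 4.99 and 6.99 FPKM in *daf-1* mutants and 0.277, 0.418 and 8.57 FPKM in *daf-1*; *daf-3* double mutants, against 1.08, 2.12 and 5.18 FPKM in N2. Both resembled *abu-14* at lower levels, except that T06E4.8 was lower in N2 replicate 1 than in double mutant replicate 2. The 3 remaining genes stayed below 1 FPKM outside *daf-1* mutants. *abu-15* was measured at 1.49, 0.973 and 1.33 FPKM in *daf-1* mutants and 0, 0.145 and 0.774 FPKM in *daf-1*; *daf-3* double mutants, against 0, 0.142 and 0.252 FPKM in N2. *abu-1* had 0.800, 0.598 and 1.01 FPKM in *daf-1* mutants and 0.0274, 0.186 and 0.639 FPKM in *daf-1*; *daf-3* double mutants, against 0.0988, 0.0916 and 0.173 FPKM in N2. *abu-7*, their weakest, had 1.003, 0.770 and 0.656 FPKM in *daf-1* mutants and 0, 0.334 and 0.137 FPKM in *daf-1*; *daf-3* double mutants, against 0.106, 0.131 and 0.0697 FPKM in N2. All *daf-1* libraries were above all N2 libraries for these 3, which passed the filter through *daf-1* mutants only, and for 0 of the other 7 *abu* genes, beside 22.2% of all tested entries. Double mutant replicate 3 reached its genotype's highest value for *abu-15* and *abu-1* but not for *abu-7*.

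Between *daf-1* mutants and N2, 12 of the 55 tested members were higher in *daf-1*, 4 *abu* and 8 *pqn* genes (9 of 51 without those that passed the filter through *daf-1* mutants only), and none was lower (5, all *pqn*, at an unadjusted limma p below 0.05). In this comparison 6.27% of all 13751 tested entries were called higher and 0.953% lower, where a call takes a fold change of 2 or more and, in limma, a p under 0.05 after Benjamini-Hochberg adjustment. Among limma results, shares of all entries were counted for calls only. Counts at an unadjusted p, here and below, have no such share beside them. The 4 *abu* genes were F41E6.11 (log2 fold change 1.59, SE 0.494, adjusted p = 0.043), *abu-15* (log2 fold change 2.03, SE 0.364, adjusted p = 0.00773), *abu-7* (log2 fold change 1.58, SE 0.371, adjusted p = 0.0194) and *abu-1* (log2 fold change 1.49, SE 0.320, adjusted p = 0.0149). The last 3 passed the filter through *daf-1* mutants only, so 1 of the 7 *abu* genes that did not depend on it was called. Log2 fold changes were positive for all 10, from 1.10 for *abu-12* to 2.03 for *abu-15*, with a median of 1.59 beside 0.51 over the tested *pqn* genes and 0.02 over all tested entries.

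The 6 *abu* genes that were not called had fold changes of 2 or more and a wide spread in N2. *abu-8* averaged 29.7 ± 12.4 FPKM in *daf-1* mutants and 12.5 ± 11.6 FPKM in N2 (SD, n = 3 each), and its difference had a limma adjusted p of 0.105. For *abu-11* the means were 17.6 ± 6.79 FPKM in *daf-1* mutants and 6.45 ± 6.12 FPKM in N2, with an adjusted p of 0.0692. *abu-10* (1.52, adjusted p = 0.109), *abu-14* (1.21, 0.113), T06E4.8 (1.61, 0.134) and *abu-12* (1.10, 0.0981), each given as log2 fold change and adjusted p, also missed the threshold. With batch as a term, which takes the replicate number as a block, 8 of the 10 *abu* genes and 19 members in all were called higher (5 of 7 and 16 of 51 without the filter-dependent members), where 7.26% of all entries were. *abu-8* then had an adjusted p of 0.0292, *abu-11* of 0.0112, *abu-14* of 0.0182 and *abu-12* of 0.0264, while *abu-10* (0.0524) and T06E4.8 (0.0508) still missed it.

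The 8 *pqn* genes that were higher in *daf-1* mutants than in N2 fell into different patterns. *pqn-63* had 2.97, 3.91 and 5.67 FPKM in *daf-1* mutants and 0.107, 0.182 and 4.01 FPKM in *daf-1*; *daf-3* double mutants, against 0.289, 0.745 and 2.28 FPKM in N2. Its difference between *daf-1* mutants and N2 passed the test (log2 fold change 1.96, SE 0.517, adjusted p = 0.0274). *pqn-74* was measured at 30.5, 42.3 and 54.3 FPKM in *daf-1* mutants and 3.76, 6.47 and 54.3 FPKM in *daf-1*; *daf-3* double mutants, against 7.70, 13.9 and 32.0 FPKM in N2, and also passed it (log2 fold change 1.43, SE 0.463, adjusted p = 0.0483). *pqn-72* (I: 3269397 to 3280883) was measured at 6.18, 6.92 and 8.89 FPKM in *daf-1* mutants and 1.42, 2.88 and 9.03 FPKM in *daf-1*; *daf-3* double mutants, against 2.16, 3.09 and 4.08 FPKM in N2, with a log2 fold change of 1.20 (adjusted p = 0.0228). All 3 varied over the libraries much as the *abu* genes did, and *pqn-63* is the neighbour of T06E4.8. The other 5, *pqn-31*, *pqn-36*, *pqn-54*, *pqn-94* and *pqn-98*, had patterns of their own that are described further on.

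The calls against N2 depended on single libraries and on the scaling. With quantile normalization 7 members and 1 *abu* gene were called higher (0 of 7 without the filter-dependent genes), where 4.08% of all entries were, and the *abu* median was 1.33. With N2 replicate 3 left out, 24 members and all 10 *abu* genes were called higher in *daf-1* mutants (21 of 51 and 7 of 7 without the filter-dependent members), where 8.92% of all entries were. Without N2 replicate 2 (3.92% of all entries) or without *daf-1* replicate 3 (4.18%), 4 members and 1 *abu* gene were. Without N2 replicate 1 (4.84%) or *daf-1* replicate 2 (4.33%), 5 members were. In each of these 4 cases 3 of 51 members and no *abu* gene remained called once the filter-dependent members were set aside. With all 9 libraries, 5 members were called higher, *abu-7*, *abu-15*, *pqn-31*, *pqn-54* and *pqn-94*, the last 3 being those that did not depend on the filter, where 3.97% of all entries were, and with batch as a term 9 were (4.94%). Without the filter-dependent members, 6 of 51 were called with all 9 libraries and batch as a term. With replicates 1 and 2 of each genotype only, 16 members were called higher (15 of 51 without the filter-dependent members), where 5.17% of all entries were.

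Between *daf-1* mutants and *daf-1*; *daf-3* double mutants, the difference in the *abu* genes was larger. With 8 libraries, 25 of 55 tested members were higher in *daf-1* mutants (22 of 51 without the filter-dependent members) and 1 was lower, where 11.2% of all entries were called higher and 1.43% lower. All 10 tested *abu* genes were among the 25, or 7 of 7 without those that passed the filter through *daf-1* mutants only. Among those 7, *abu-8*, *abu-10*, *abu-11*, T06E4.8 and F41E6.11 had been picked by the study for this same difference. No *abu* value of *daf-1* mutants overlapped replicates 1 and 2 of the double mutants, a separation that 30.3% of all tested entries showed in this direction. The median log2 fold change was 3.28 over the tested *abu* genes, 0.49 over the tested *pqn* genes and 0.00026 over all entries.

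*abu-8* had the largest of these differences, at 29.7 ± 12.4 FPKM in *daf-1* mutants (SD, n = 3) against 0.985 ± 0.0868 FPKM in double mutants (SD, n = 2, replicates 1 and 2), with log2 fold change 4.51, SE 0.814, adjusted p = 0.00752 in limma. *abu-14* averaged 97.1 ± 30.5 FPKM in *daf-1* mutants against 5.69 ± 2.13 FPKM in those double mutants (log2 fold change 4.03, SE 0.603, adjusted p = 0.00463). *abu-11* averaged 17.6 ± 6.79 FPKM in *daf-1* mutants against 0.959 ± 0.706 FPKM in those double mutants (log2 fold change 3.95, SE 0.733, adjusted p = 0.00797). F41E6.11 (3.76), T06E4.8 (3.35), *abu-12* (3.22), *abu-10* (2.58), *abu-15* (2.25), *abu-1* (1.58) and *abu-7* (1.46) followed, each with its log2 fold change.

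Of the 45 tested *pqn* genes, 15 were higher in *daf-1* mutants than in double mutants. *pqn-71* (V: 15465677 to 15467100) was the most changed, with 8.14, 11.6 and 22.3 FPKM in *daf-1* mutants and 0.421, 0.390 and 29.5 FPKM in *daf-1*; *daf-3* double mutants, against 0.687, 4.34 and 11.01 FPKM in N2 (log2 fold change 4.32, SE 0.874, adjusted p = 0.00995 for *daf-1* minus double mutant). *pqn-32* (II: 13108019 to 13110169) was measured at 28.1, 35.7 and 44.2 FPKM in *daf-1* mutants and 2.01, 3.17 and 52.6 FPKM in *daf-1*; *daf-3* double mutants, against 9.22, 13.05 and 38.2 FPKM in N2 (3.68, adjusted p = 0.00389). Both have the profile of *abu-8*, with the double mutant's replicates 1 and 2 below all other libraries and its replicate 3 above them.

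*pqn-13* (V: 5669604 to 5676111) had 16.8, 21.6 and 24.4 FPKM in *daf-1* mutants and 1.52, 2.53 and 32.7 FPKM in *daf-1*; *daf-3* double mutants, against 7.44, 9.69 and 25.4 FPKM in N2. *pqn-73* (II: 8540712 to 8545393) had 16.1, 16.6 and 20.6 FPKM in *daf-1* mutants and 1.84, 2.42 and 24.8 FPKM in *daf-1*; *daf-3* double mutants, against 7.90, 7.71 and 21.8 FPKM in N2. For both, N2 replicate 3 was above every *daf-1* library. *pqn-13* differed by 3.24 from the double mutants (adjusted p = 0.00407) and by 0.74 from N2, which missed the threshold (adjusted p = 0.185). *pqn-73* differed by 2.92 from the double mutants (adjusted p = 0.00389) and by 0.67 from N2 (adjusted p = 0.175). *pqn-26* (I: 8771178 to 8777518) had 6.89, 8.48 and 10.6 FPKM in *daf-1* mutants and 0.501, 0.987 and 12.5 FPKM in *daf-1*; *daf-3* double mutants, against 2.12, 3.04 and 8.69 FPKM in N2 (3.19 against the double mutants, adjusted p = 0.00555). The other 10 were *pqn-63* (3.45), *pqn-74* (3.00), *pqn-54* (1.87), *pqn-29* (1.73), *pqn-72* (1.71), *pqn-97* (1.56), *pqn-42* (1.33), *pqn-67* (1.33), the pseudogene *pqn-11* (1.25) and *pqn-35* (1.17), each with its log2 fold change.

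With replicate 3 of the double mutants included, this comparison kept 2 of its 26 calls, *pqn-54*, higher in *daf-1* mutants, and *pqn-60*, lower. The share of all entries called higher then was 0.64% and the share called lower was 0.532%. No *abu* gene was called, their median log2 fold change was 1.94, and 3 had an unadjusted limma p below 0.05, or 9 with batch as a term, which kept the same 2 calls and called 0.863% of all entries higher and 0.611% lower. Among the 8 libraries, leaving out replicate 1 of the double mutants, which leaves that genotype 1 library whose spread is taken from the others, left 9 members higher and 3 *abu* genes, none of them filter-dependent, where 3.55% of all entries were called higher. With replicates 1 and 2 of each genotype only, 24 members and 9 *abu* genes were called higher (22 of 51 and 7 of 7 without the filter-dependent members), where 9.34% of all entries were.

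Against N2, the double mutants had 2 members higher and 8 lower with 8 libraries, where 3.56% of all entries were called higher and 5.34% lower. The 8 were *abu-8* (−2.82, limma adjusted p = 0.0476), *abu-14* (−2.82, 0.0155), F41E6.11 (−2.16, 0.0302), *abu-12* (−2.12, 0.0258), *pqn-32* (−2.60, 0.0112), *pqn-13* (−2.50, 0.0084), *pqn-73* (−2.25, 0.00756) and *pqn-26* (−2.09, 0.0256), each with its log2 fold change and adjusted p. *abu-14*, for example, averaged 5.69 ± 2.13 FPKM in replicates 1 and 2 of the double mutants (SD, n = 2) and 51.2 ± 42.3 FPKM in N2 (SD, n = 3). The median log2 fold change was −1.93 over the tested *abu* genes and −0.11 over the tested *pqn* genes. The 2 higher members were *pqn-31* and *pqn-60*. With all 9 libraries limma called none of the 8 with or without batch as a term, where 0.489% and, with the term, 0.604% of all entries were called lower, no *abu* gene and 3 *pqn* genes were lower at an unadjusted p below 0.05, and the medians were −0.52 for *abu* and −0.05 for *pqn* genes. The number called lower was 1 without double mutant replicate 1 (2.45% of all entries), 4 without its replicate 2 (3.48%), 5 without N2 replicate 2 (4.69%) and 15 without N2 replicate 1 (6.6%). It was 6 with replicates 1 and 2 only, where 3.49% of all entries were called lower.

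Within a batch, each genotype is represented by 1 library of the same number. Every one of the 10 *abu* genes was higher in *daf-1* mutants than in N2 in each of the 3 batches, the 7 that did not depend on the filter included, as were 25 of 45 *pqn* genes and 34.6% of all tested entries. The median difference of the *abu* genes, in log2(FPKM + 0.25), was 2.28 in batch 1, 1.38 in batch 2 and 0.87 in batch 3. *abu-14* differed by 1.92, 1.33 and 0.39 in those batches, and *abu-11* by 2.52, 1.95 and 0.87. Between *daf-1* mutants and double mutants the *abu* medians were 3.23 and 2.89 in batches 1 and 2, with all 10 genes higher, and −0.22 in batch 3, with 4 higher and 6 lower. Of all 13751 tested entries, 6909, 6438 and 5617 were higher in *daf-1* mutants in batches 1, 2 and 3, with a median of −0.06 in batch 3. Between double mutants and N2 the *abu* medians were −0.78, −1.57 and 0.94. In batch 3 all 10 *abu* genes were higher in the double mutant than in N2, as were 6949 of all tested entries.

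**Figure D2:**
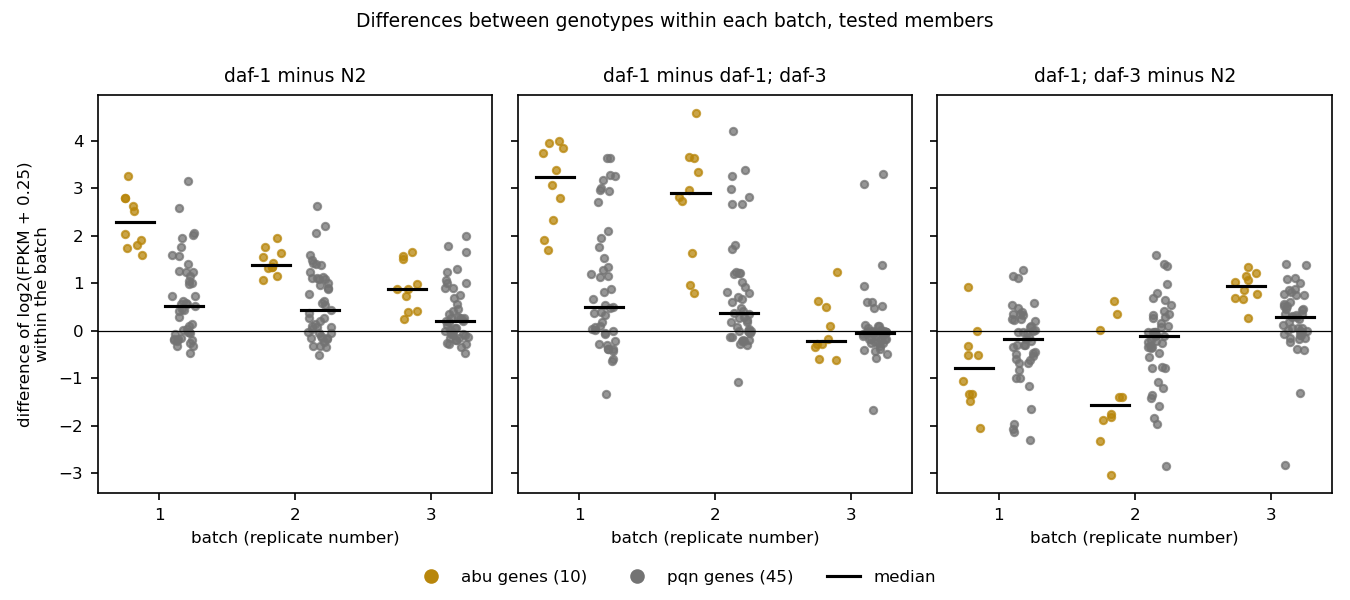
Differences between genotypes in log2(FPKM + 0.25) for each tested member (points) within batches 1, 2 and 3, with a line at the median of the 10 *abu* genes and of the 45 *pqn* genes. The *abu* medians stay above 0 for *daf-1* minus N2 (2.28, 1.38 and 0.87), and change sign in batch 3 for both differences that involve the double mutant (−0.22 and 0.94). Over all tested entries, not drawn, those batch 3 medians were −0.06 and 0.005.

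Within genotypes, replicate 3 was often the highest library for *abu* genes. It was the highest of its genotype in *daf-1* mutants, double mutants and N2 alike for 8 of 10 *abu* and 19 of 45 *pqn* genes, beside 17.4% of all tested entries. Double mutant replicate 3 was above all 3 N2 libraries for 10 of 10 *abu* and 26 of 45 *pqn* genes (38.2% of entries), and more than 2 times the higher of replicates 1 and 2 for 9 *abu* and 14 *pqn* genes (15.9% of entries). It was the highest of the 9 libraries for 6 *abu* and 17 *pqn* genes (20.7% of entries), and double mutant replicate 1 was the lowest for 9 *abu* and 18 *pqn* genes (21.7% of entries). Between batch 3 and batches 1 and 2, with genotype as a term and 8 libraries, no member was called in either direction, where 0.0509% of all entries were called higher and none lower. Without adjustment, limma gave a p below 0.05 to 20 members higher and 2 lower, 7 of the 20 being *abu* genes, and the *abu* median was 1.25 against 0.06 for *pqn* genes and −0.03 for all entries. The share of all entries at that unadjusted level was not counted. With 9 libraries limma again called no member, 24 were higher and 4 lower at an unadjusted p below 0.05, and the medians were 2.214 for *abu* and 0.17 for *pqn* genes. No other tool was run.

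How far each *pqn* gene followed the *abu* genes was described by its correlation with the mean standardised profile of the 10 tested *abu* genes over the 9 libraries, which share genotype and batch. Of the 45 *pqn* genes 13 had an r of at least 0.9, as had 8 *abu* genes. The limits of 0.9 and 0.3 were chosen after the values were seen and carry no test. The shares of all tested entries beyond them were not counted, so these counts cannot be set against a background. Genes outside the family also reached a high r, 0.982 to 0.993 for the 10 most alike. The *abu* profile is itself higher in *daf-1* mutants than in N2, low in double mutant replicates 1 and 2 and high in replicate 3. Counts of these traits among members with a high r therefore follow largely from the selection. Closest were *pqn-63* (r = 0.99), *pqn-74* (0.99), *pqn-72* (0.97), *pqn-71* (0.96) and *pqn-26* (0.96). The *abu* gene least like its group was *abu-7* (r = 0.56). An r below 0.3 was found for 20 *pqn* genes, and the lowest was *pqn-51* (r = −0.84). Of the 21 members at or above 0.9, 20 were among the 25 called higher in *daf-1* mutants than in the 8-library double mutants, 18 were higher in *daf-1* mutants than in N2 in every batch, and in 16 double mutant replicate 3 was above *daf-1* replicate 3. The exception among the 21 was *pqn-18*, with 16.4, 17.1 and 17.8 FPKM in *daf-1* mutants and 9.22, 10.6 and 21.4 FPKM in *daf-1*; *daf-3* double mutants, against 11.4, 11.4 and 15.6 FPKM in N2, a smaller change of the same order (0.77, limma adjusted p = 0.0102 for *daf-1* minus double mutant).

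**Figure D3:**
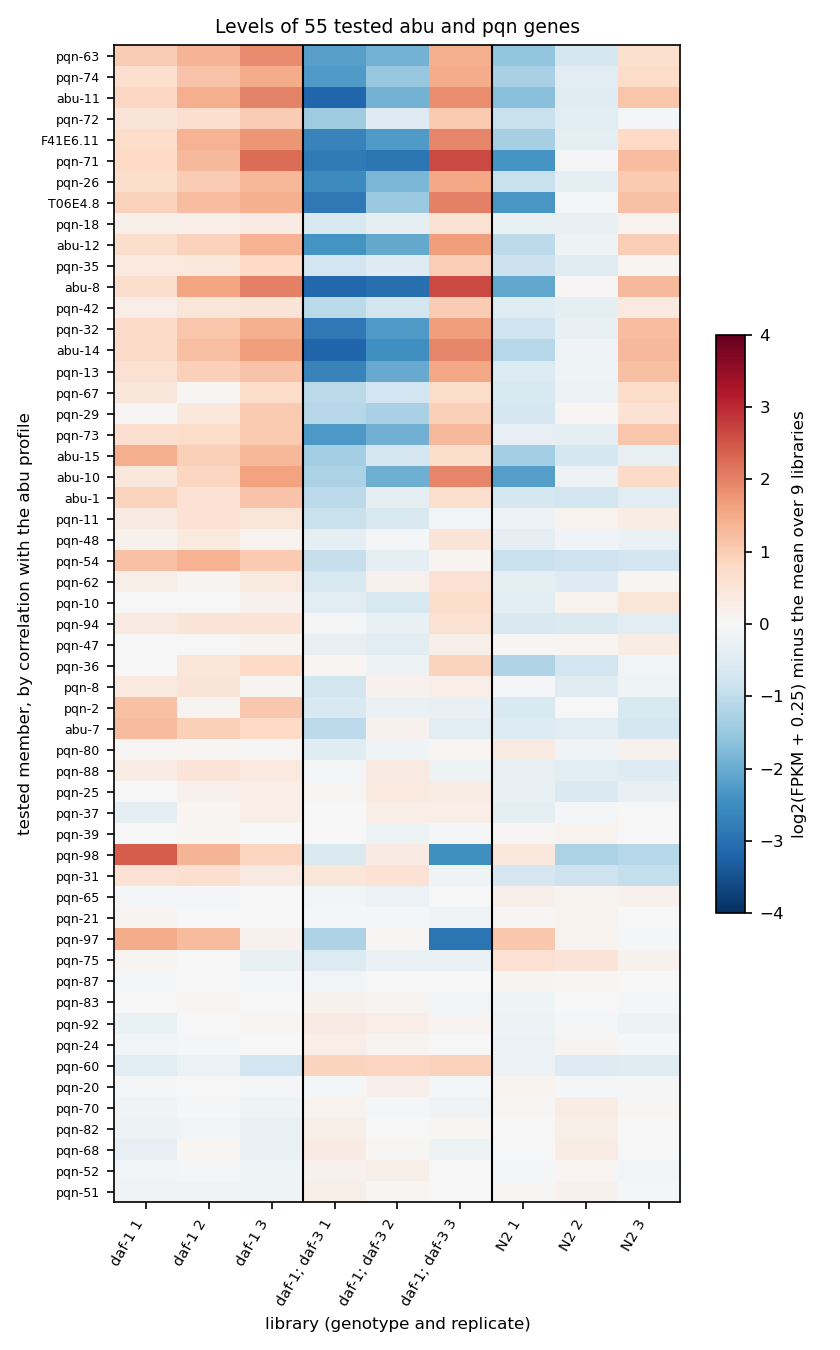
Level of each of the 55 tested members in the 9 libraries, as log2(FPKM + 0.25) minus the member's mean, ordered by correlation with the *abu* profile. The upper part holds the 21 members with r of at least 0.9, low in double mutant replicates 1 and 2 and high in replicate 3, and the 20 *pqn* genes below 0.3 in the lower part vary little, apart from a few such as *pqn-60*, *pqn-98* and *pqn-97*.

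The other 5 *pqn* genes called higher in *daf-1* mutants than in N2 had an r with the *abu* profile below 0.9, at 0.79 for *pqn-54*, 0.72 for *pqn-94*, 0.68 for *pqn-36*, 0.14 for *pqn-98* and 0.11 for *pqn-31*. The first 3 of these lie above the 0.56 of *abu-7*. *pqn-54* (V: 1464990 to 1466360) was measured at 2.79, 3.29 and 2.53 FPKM in *daf-1* mutants and 0.462, 0.768 and 1.21 FPKM in *daf-1*; *daf-3* double mutants, against 0.480, 0.514 and 0.559 FPKM in N2. Its 3 *daf-1* libraries overlapped no other library, and it passed the test against both genotypes with 8 libraries (2.02, adjusted p = 0.000966 against N2, and 1.87, 0.00413 against double mutants) and with 9 (0.00457 and 0.0351).

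*pqn-31* (V: 9109581 to 9111013) was measured at 36.1, 38.4 and 30.9 FPKM in *daf-1* mutants and 33.8, 36.1 and 21.6 FPKM in *daf-1*; *daf-3* double mutants, against 15.0, 13.5 and 12.4 FPKM in N2. It was higher in both mutants, by 1.35 in *daf-1* (adjusted p = 0.000125) and 1.34 in *daf-1*; *daf-3* (adjusted p = 0.000264) on the log2 scale, and the 2 mutants differed by 0.00 (SE 0.124, adjusted p = 0.984). Both calls against N2 held with 9 libraries, and here replicate 3 was the lowest library of each genotype.

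*pqn-94* (V: 20278654 to 20279861) was measured at 110.5, 124 and 127 FPKM in *daf-1* mutants and 83.6, 71.4 and 134 FPKM in *daf-1*; *daf-3* double mutants, against 55.3, 58.2 and 62.9 FPKM in N2. All *daf-1* libraries and all double mutant libraries were above all N2 libraries, and the difference passed the test for *daf-1* mutants with 8 libraries (log2 fold change 1.03, SE 0.0935, adjusted p = 0.000214) and with 9 (adjusted p = 0.0185). For the double mutants it was 0.39 and under 2-fold. *pqn-36* (X: 15409148 to 15415493) was measured at 4.14, 5.77 and 7.18 FPKM in *daf-1* mutants and 4.26, 3.45 and 7.79 FPKM in *daf-1*; *daf-3* double mutants, against 1.62, 2.30 and 3.76 FPKM in N2, with 1.121 (adjusted p = 0.0295) in *daf-1* mutants and 0.61 (adjusted p = 0.267) in double mutants, both against N2. *pqn-98* was measured at 12.2, 5.65 and 3.91 FPKM in *daf-1* mutants and 1.30, 2.63 and 0.173 FPKM in *daf-1*; *daf-3* double mutants, against 2.85, 0.712 and 0.801 FPKM in N2. Its *daf-1* libraries were above all others, with replicate 1 more than 2 times as high as replicate 2, and its double mutant replicate 3 was the lowest library. The difference from N2 passed the test with 8 libraries (2.204, adjusted p = 0.022) and not with 9 (0.092), and the difference from the double mutants had an adjusted p of 0.0583.

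*pqn-60* was the only member called higher in the double mutants against both other genotypes, at the 2-fold threshold. It was measured at 19.8, 23.1 and 15.9 FPKM in *daf-1* mutants and 50.3, 49.4 and 51.4 FPKM in *daf-1*; *daf-3* double mutants, against 23.1, 19.01 and 19.4 FPKM in N2. The double mutant libraries, replicate 3 among them, lay between 49.4 and 51.4 FPKM and overlapped no other library, and the calls held with 8 libraries (−1.35 for *daf-1* minus double mutant, adjusted p = 0.00241, and 1.28 for double mutant minus N2, 0.00144) and with 9 (0.00257 and 0.00113).

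**Figure D4:**
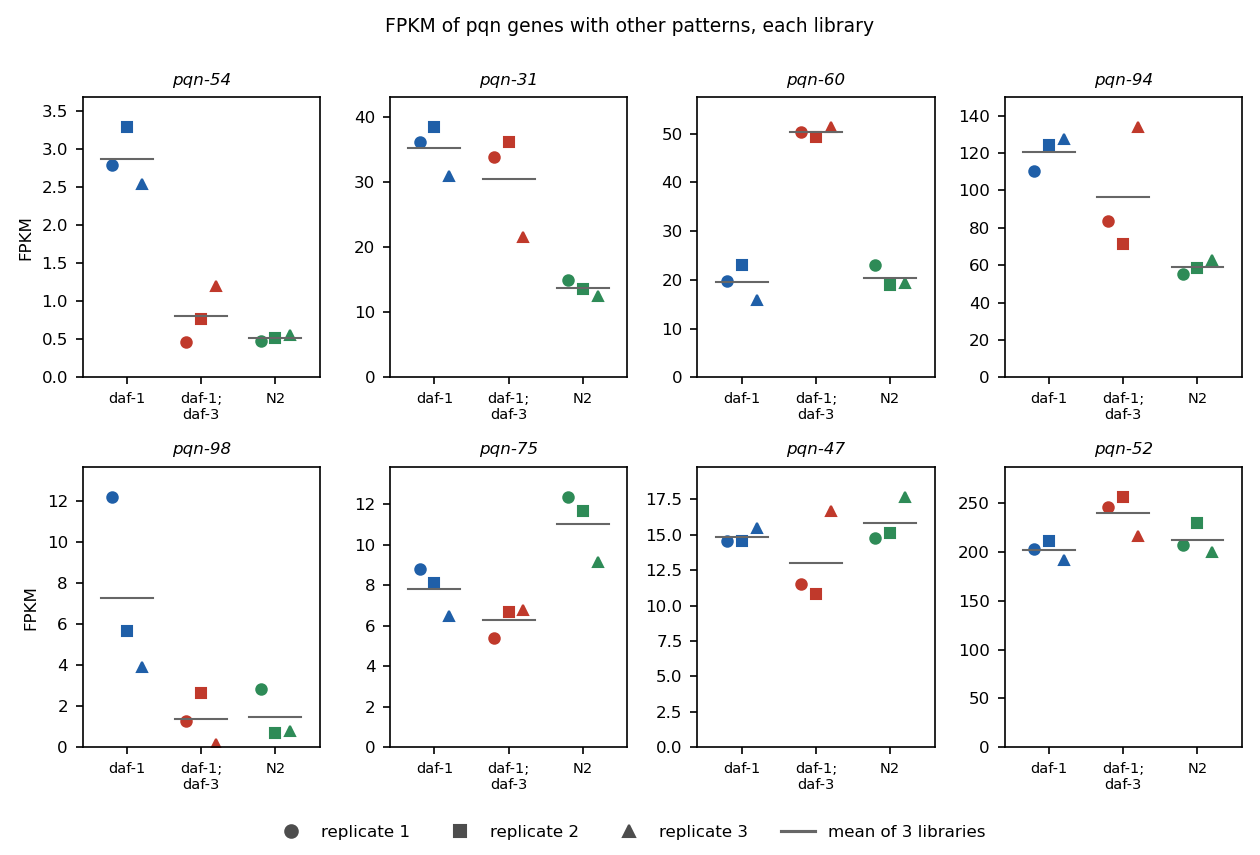
FPKM of 8 *pqn* genes in *daf-1*, *daf-1*; *daf-3* and N2 libraries, with the replicate number as the symbol and the mean of 3 libraries as a line. *pqn-60* is at 49.4 to 51.4 FPKM in the double mutants, above every other library, *pqn-31* and *pqn-94* are above N2 in both mutants, and *pqn-47* and *pqn-52* differ little between genotypes.

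*pqn-47*, known for a part in the molting cycle, was measured at 14.5, 14.6 and 15.4 FPKM in *daf-1* mutants and 11.5, 10.8 and 16.7 FPKM in *daf-1*; *daf-3* double mutants, against 14.8, 15.1 and 17.7 FPKM in N2. It passed no 2-fold threshold, and its log2 fold change was −0.09 in *daf-1* mutants against N2 (SE 0.105, adjusted p = 0.528) and −0.49 in double mutants against N2 (SE 0.117, adjusted p = 0.0237). *pqn-75*, whose product is known from the pharyngeal gland cells, was measured at 8.80, 8.13 and 6.48 FPKM in *daf-1* mutants and 5.41, 6.69 and 6.78 FPKM in *daf-1*; *daf-3* double mutants, against 12.4, 11.7 and 9.13 FPKM in N2. It was lower in the double mutants than in N2 in every library, by less than 2-fold (−0.84, adjusted p = 0.0205), and did not share the *abu* profile (r = −0.03).

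The most abundant *pqn* genes differed little between genotypes. *pqn-52* was measured at 203, 211 and 192 FPKM in *daf-1* mutants and 246, 256 and 217 FPKM in *daf-1*; *daf-3* double mutants, against 207, 229 and 200.3 FPKM in N2. *pqn-70* was measured at 181, 194 and 178 FPKM in *daf-1* mutants and 222, 193 and 182 FPKM in *daf-1*; *daf-3* double mutants, against 206, 242 and 205 FPKM in N2. *pqn-87* was measured at 148, 152 and 145 FPKM in *daf-1* mutants and 142, 153 and 154 FPKM in *daf-1*; *daf-3* double mutants, against 165, 156 and 155 FPKM in N2. No difference was called in these 3, and their log2 fold changes between genotypes lay between −0.31 and 0.24. *pqn-51* averaged 117 ± 1.95 FPKM in *daf-1* mutants, 146 ± 11.9 FPKM in double mutants (replicates 1 and 2) and 136 ± 10.6 FPKM in N2 (SD, n = 3, 2 and 3). *pqn-20* averaged 102 ± 1.94 FPKM in *daf-1* mutants, 109.7 ± 13.9 FPKM in double mutants (replicates 1 and 2) and 103 ± 8.84 FPKM in N2 (SD, n = 3, 2 and 3). These 5 genes were among the 20 with an r below 0.3.

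Few genes of the ER unfolded protein response, from which the *abu* name derives, were called. Of 15 tested, limma called none between *daf-1* mutants and N2 (1 higher and 1 lower at an unadjusted p below 0.05), and the log2 fold changes ran from −0.41 for *ckb-2* to 0.18 for *xbp-1*, which encodes a transcription factor of this response. The ER chaperone *hsp-4* was measured at 179.5, 159.7 and 144 FPKM in *daf-1* mutants and 214, 198 and 112 FPKM in *daf-1*; *daf-3* double mutants, against 206, 199 and 164 FPKM in N2. The only call was *ckb-2*, lower in *daf-1* mutants than in double mutants (−1.66, limma adjusted p = 0.0037) and higher in double mutants than in N2. The medians of the 15 genes were 0.04 for *daf-1* against N2 and −0.05 for *daf-1* against the double mutants.

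Genes of the pharynx and of molting moved in part with the *abu* genes, and their part in the result was not tested. Of 8 tested pharyngeal gland genes, 1 was higher in *daf-1* mutants than in N2, 5 were higher in *daf-1* mutants than in double mutants, and 3 were lower in double mutants than in N2. *phat-5*, for instance, was measured at 12.8, 17.1 and 30.1 FPKM in *daf-1* mutants and 0.586, 1.07 and 40.2 FPKM in *daf-1*; *daf-3* double mutants, against 2.37, 8.59 and 18.4 FPKM in N2. The gland genes summed to 87.1, 113 and 123 FPKM in *daf-1* mutants and 21.1, 31.2 and 110.1 FPKM in *daf-1*; *daf-3* double mutants, against 30.1, 36.9 and 68.1 FPKM in N2. Of 8 pharyngeal muscle genes, 5 were higher in *daf-1* mutants than in N2 (*myo-1*, *myo-2*, *myo-5*, *tnc-2* and *tnt-4*), 4 were higher in *daf-1* mutants than in double mutants, and 1 was lower in double mutants than in N2. Their sums were 228, 261 and 312 FPKM in *daf-1* mutants and 103, 155 and 342 FPKM in *daf-1*; *daf-3* double mutants, against 119.7, 137 and 201 FPKM in N2. None of the gland or pharyngeal muscle markers was at 0 in any library, and both sums were highest of their genotype in replicate 3.

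Of 12 tested molting effectors, which include proteases and matrix proteins of the cuticle, 1 was lower in *daf-1* mutants than in N2, 5 were higher and 1 was lower in *daf-1* mutants than in double mutants, and 5 were lower in double mutants than in N2. Of 7 regulators of the molting cycle limma called none between *daf-1* mutants and N2 (1 lower at an unadjusted p below 0.05), 4 (*lin-42*, *grh-1*, *blmp-1* and *bed-3*) were higher in *daf-1* mutants than in double mutants, and 4 (*lin-42*, *grh-1*, *blmp-1* and *nhr-25*) were lower in double mutants than in N2. *grh-1*, an epidermal transcription factor, was measured at 15.4, 15.6 and 18.3 FPKM in *daf-1* mutants and 2.23, 3.02 and 21.2 FPKM in *daf-1*; *daf-3* double mutants, against 8.76, 8.86 and 19.4 FPKM in N2. Sums of the effectors were 194, 212 and 227 FPKM in *daf-1* mutants and 75.8, 89.7 and 265 FPKM in *daf-1*; *daf-3* double mutants, against 178, 167 and 268 FPKM in N2. Of 5 further genes, 2 chitinases and 3 proteins of apical matrices, *lpr-3* and *dex-1* were higher in *daf-1* mutants than in double mutants, both lower in double mutants than in N2, and none was called between *daf-1* mutants and N2 (2 lower at an unadjusted p below 0.05). Of 16 collagens of the body cuticle, 8 were higher in *daf-1* mutants than in N2, 12 were higher in *daf-1* mutants than in double mutants, and 1 was higher and 6 were lower in double mutants than in N2. The 8 and the 6 are different genes. In double mutant replicate 3 the 8 (*dpy-13*, for example, at 0.734 FPKM) lay below every *daf-1* library, and the 6 (*sqt-3* at 1033 FPKM) above. Of the 8, *rol-6* and *bli-1* reached 0.5 FPKM in the 8 libraries through *daf-1* mutants only. Both had to differ in order to be tested, and *rol-6* is also among the 12. With all 9 libraries limma called no gene of these pharyngeal, molting and collagen lists between *daf-1* mutants and double mutants. At an unadjusted p below 0.05, 8 collagens, 1 gland gene and 1 molting effector were then higher in *daf-1* mutants, and no pharyngeal muscle gene was. Against N2, *daf-1* mutants then had 6 collagens higher and 1 molting effector lower, with no call among the gland, pharyngeal muscle, molting regulator, chitinase or matrix genes, of which 4 pharyngeal muscle genes and 1 gland gene were higher and 2 of the chitinase and matrix genes and 1 regulator were lower at an unadjusted p below 0.05. Limma called none of these genes between double mutants and N2 with 9 libraries. At an unadjusted p below 0.05, 2 of the chitinase and matrix genes, 2 effectors, 1 regulator and 1 collagen were lower there, and 1 effector and 1 collagen were higher.

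Markers of other tissues were counted in the same way. Of 8 germline and eggshell genes limma called none in any comparison of genotypes, and 6 were lower in *daf-1* mutants than in N2 at an unadjusted p below 0.05. All 3 tested sperm genes were higher in *daf-1* mutants than in N2, and the 7 sperm genes with an entry of their own summed to 7.44, 8.70 and 7.16 FPKM in *daf-1* mutants and 0.624, 6.86 and 1.07 FPKM in *daf-1*; *daf-3* double mutants, against 2.35, 1.76 and 0.914 FPKM in N2. Of 10 intestinal genes, 1 was higher and 1 was lower in *daf-1* mutants compared with N2, and 1 was lower in double mutants than in N2. Of 8 body wall muscle genes 1, and of 9 neuronal genes 2, were higher in *daf-1* mutants than in double mutants, and no other call was made, although all 8 body wall muscle genes and 7 neuronal genes were higher in *daf-1* mutants than in N2 at an unadjusted p below 0.05. With all 9 libraries 1 intestinal gene, higher in *daf-1* mutants than in N2, was the only call left in the germline, sperm, intestine, muscle and neuron lists and the ER response genes, and the 3 sperm genes kept only an unadjusted limma p below 0.05 in that comparison, in which 6 body wall muscle and 3 neuronal genes were higher and 5 germline genes lower at that level. The sperm marker *ssp-9* was listed at 0 in every library.

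The 10 genes outside the family with a mean of at least 5 FPKM whose profile over the 9 libraries was most like that of the *abu* genes were *col-97* (r = 0.993), ZK84.1, Y47D7A.13, *col-113*, *col-48*, C02E7.7, *col-14*, *col-104*, *col-130* and *col-125* (r = 0.982). Among them, 7 are *col* genes, which encode cuticle collagens. *col-97* was measured at 34.3, 33.8 and 54.4 FPKM in *daf-1* mutants and 1.40, 4.85 and 53.6 FPKM in *daf-1*; *daf-3* double mutants, against 4.02, 8.87 and 22.3 FPKM in N2. *col-125* was measured at 70.8, 101 and 157 FPKM in *daf-1* mutants and 3.44, 14.6 and 185 FPKM in *daf-1*; *daf-3* double mutants, against 9.33, 26.9 and 60.9 FPKM in N2. In both, double mutant replicates 1 and 2 were among the 3 lowest libraries, and replicate 3 was within or above the range of *daf-1* mutants.

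Another 11 *abu* and *pqn* names occur only in 11 entries that join several loci, whose values cannot be read apart and which are not members. The entry of *abu-13* and *flap-1* was measured at 69.0, 71.4 and 75.5 FPKM in *daf-1* mutants and 61.4, 56.1 and 88.5 FPKM in *daf-1*; *daf-3* double mutants, against 61.6, 67.5 and 78.1 FPKM in N2, and that of *pqn-41* with F53A3.5 at 70.3, 78.8 and 68.9 FPKM in *daf-1* mutants and 70.4, 57.6 and 91.3 FPKM in *daf-1*; *daf-3* double mutants, against 69.2, 87.1 and 82.7 FPKM in N2. In the first, double mutant replicates 1 and 2 were the lowest libraries and replicate 3 the highest.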

How the data were processed

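RNA from 9 populations of hermaphrodites was sequenced. Reads were demultiplexed by the authors in bcl2fastq (1.8.4) and trimmed in Trim Galore (0.4.0). TopHat2 (2.0.12) placed them on WBcel235, and Cufflinks, which the submitters' processing notes give as version 2.21, supplied the abundances. The deposited FPKM values are per library, unlogged and not counts. Whether the counting used strand is not given in the sources used here. The 186 entries that name no gene held 0.0502 to 0.257% of a library's FPKM total and were left out of the tests, and the 4882 entries that join several genes were treated like the others.

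The test was limma (version 3.58.1, under R 4.3.3), applied to log2(FPKM + 0.25), so fold changes of low genes are understated. The 3 genotypes shared 1 linear model with a trend of variance on level, over 13751 entries with 8 libraries and 13907 with 9. The code was tested on simulated data. P-values measure the spread between these populations. Replicate numbers pair the libraries because the titles' b1 to b3 mark what the study calls batches. Deviations from the genotype means correlated at 0.0868 to 0.520 in the 9 pairs with the same number and at −0.404 to 0.315 in the 18 with different numbers. Tables were summarised with pandas 2.3.3 in Python 3.11.15 and plotted with matplotlib 3.10.9. Alternatives were another pseudocount, other filters, quantile normalization, the replicate block and each library left out. Positions come from the WBcel235 annotation.

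The members, the tissue and pathway lists and the tests were chosen with earlier results of these data known. Members named are those the study names, T06E4.8, F41E6.11, *pqn-47*, the 10 largest called changes of each comparison whose higher genotype averaged 1 FPKM or more, and the 5 most abundant. The other *abu* and *pqn* genes with values, among them *abu-7*, *pqn-2*, *pqn-18* and *pqn-75*, and the genes named from the lists were chosen after their values were seen. A planned grouping of members by cysteine content and a search of promoters for motifs were not run, since no protein or promoter sequences were used here. The *abu* profile took the place of the cysteine-rich group as the reference for correlations.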

Additional observations from a re-analysis of the deposited data

Results flagged for a closer look

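Double mutant replicate 3 took no part in the comparisons of 8 libraries. In it, 9 named members that had at least 1 FPKM there were at more than 2 times the highest N2 library, limits set after the values were seen. The share of all entries beyond these limits was not counted. This replicate was above all 3 N2 libraries for 38.2% of all tested entries. *abu-1* and *abu-15*, below 1 FPKM there, also exceeded 2 times the highest N2 library. *abu-8* was at 63.9 FPKM there, against at most 25.0 FPKM in N2, *abu-10* at 18.05 FPKM, against at most 7.68, and F41E6.11 at 17.9 FPKM, against at most 7.95. Among the *pqn* genes, *pqn-71* was at 29.5 FPKM there, against at most 11.01 FPKM in N2, *pqn-72* was at 9.03 FPKM there, against at most 4.08 FPKM in N2, *pqn-36* was at 7.79 FPKM there, against at most 3.76 FPKM in N2, *pqn-94* was at 134 FPKM there, against at most 62.9 FPKM in N2, and *pqn-54* was at 1.21 FPKM there, against at most 0.559 FPKM in N2. *pqn-60*, at 51.4 FPKM there and at most 23.1 FPKM in N2, was as high in double mutant replicates 1 and 2, at 50.3 and 49.4 FPKM.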

How the results depend on the processing

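Alternatives were all 9 libraries, the replicate block with 8 and with 9 libraries, a pseudocount of 1, no filter, a mean of at least 1 FPKM, quantile normalization, each of the 8 libraries left out, and, chosen after seeing the data, replicates 1 and 2 only. No comparison's median and no named member that was called changed sign. Members called higher in *daf-1* mutants than in N2 numbered 12, against 5 with all 9 libraries, 19 with the replicate block on 8 libraries and 7 with quantile normalization. Without the filter-dependent members these were 9, 3, 16 and 6 of 51. Members called higher in *daf-1* mutants than in double mutants numbered 25, and 1 with all 9 libraries, with or without the replicate block, and 16 with quantile normalization. Without the filter-dependent members these were 22, 1 and 15 of 51. Those lower in double mutants than in N2 numbered 8, against 0 in limma with 9 libraries (3 at an unadjusted p below 0.05, or 4 with the block), 5 with a pseudocount of 1 and 4 without a filter. The causes of these shifts were not tested. The share of all entries called was not counted with a pseudocount of 1, without a filter, or, against double mutants, with quantile normalization. The median log2 fold change of all tested members was 0.57 for *daf-1* against N2, 0.34 with quantile normalization, which also put the median of all entries at −0.10, against 0.02 without it. It was 0.77 for *daf-1* against double mutants and 0.43 with all 9 libraries, with or without the block.

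With 1 library left out, the members called higher in *daf-1* mutants than in N2 ranged from 4 to 24 and their median from 0.47 to 0.82. Against double mutants these were 9 to 26 and 0.74 to 1.07. Members lower in double mutants than in N2 ranged from 1 to 15, and the median from −0.44 to −0.14. Where a double mutant library was left out, the lone one was assumed to vary like the other genotypes. No value was obtained for the cysteine threshold, since no protein sequences were used. Of 11 named members called against N2, 4 stayed called with all 9 libraries, and of 19 called between *daf-1* and double mutants, 2 did. The replicate block on 8 libraries kept all of both, and the 10 named members called between double mutants and N2. FPKM values without counts limit what can be said of members below about 1 FPKM, such as *abu-1*, *abu-7* and *abu-15*.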
